A study of Mus musculus with 12 samples.

Results

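The genes of the AP-1 transcription factor family were examined through the ATAC peaks assigned to them in host microglia and graft-derived brain macrophages. The 10 genes were Fos, Fosb, Fosl1, Fosl2, Jun, Junb, Jund, Batf, Batf3 and Atf3, and a peak counted as theirs when the nearest annotated start site in the deposited table was that of the gene. By this rule 90 of 60288 merged peaks in untreated mice and 81 of 54953 merged peaks in mice given lipopolysaccharide (LPS, a bacterial endotoxin) belonged to the family. Peaks were present for all genes but Fosl1, which left 9 of the 10 in either table. Fos held the most in untreated mice (22), followed by Jun (15), Batf3 (13), Atf3 (12), Batf (9), Fosl2 (9), Fosb (6), Junb (3) and Jund (1). After LPS, Jun held 16, Fos 14, Atf3 11, Fosl2 11, Batf3 10, Batf 9, Fosb 5, Junb 3 and Jund 2.

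ATAC-seq uses a transposase that inserts adapters into accessible DNA, so the number of tags in a peak is a measure of open chromatin. All mice were C57BL/6J, labelled WT, and had been irradiated with 950 cGy, a dose the study calls lethal, and reconstituted with donor bone marrow 3.5 or 9 months earlier. Mice 4, 5 and 6 stayed untreated, and mice 1, 2 and 3 received 2.5 mg/kg LPS and were killed 12 h later. From each brain the graft-derived cells (CD45.1) and the host microglia (CD45.2) were sorted separately, which gave 4 groups of 3 libraries (CD45.1 untreated, CD45.2 untreated, CD45.1 LPS and CD45.2 LPS). The labels give both intervals and no donor line, and the study's text gives 9 months and wild-type congenic donors with CD45.1 alleles for these experiments. No group without irradiation was analysed here. All brains were digested for 20 min at 37 °C before sorting, and 30000 to 50000 cells went into a library.

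AP-1 is a dimer of basic leucine zipper proteins. Jun proteins pair with each other or with Fos proteins, whereas BATF proteins and ATF3 pair mainly with Jun proteins, and the dimers bind short palindromic sites in promoters and enhancers. Several of the genes, Fos, Jun, Junb and Atf3 among them, are switched on within minutes by stress and by mitogen-activated protein kinases, and in macrophages AP-1 dimers act beside lineage factors at enhancers that respond to microbial products.

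The libraries were checked before the family was examined. An untreated library had 8392877.5 to 9107770 tags in all and an LPS library 2966364 to 6556594.5, so that the median merged peak held 16 to 35 tags in an untreated and 8 to 23.5 tags in an LPS library. All 6 microglia markers used for the check (Sall1, Tmem119, P2ry12, Cx3cr1, Csf1r and Aif1) had peaks in both tables. At rest their normalized tags summed to 1217 to 1598 in CD45.1 and 2284 to 2504 in CD45.2 libraries, and after LPS to 525 to 643 and 751 to 882. None of the 3 T cell markers (Cd3e, Cd3g and Cd8a) had a peak, and of the 2 B cell markers (Cd79a and Ms4a1) only Ms4a1 had, with 93.3 to 116 tags in CD45.1 and 27.5 to 34.8 in CD45.2 libraries at rest. The 2 of 3 monocyte markers with peaks in untreated mice summed to 61.4 to 81.8 and 59.9 to 71.2 tags. Markers of neurons, astrocytes and endothelial cells (3 each, all with peaks) also summed lower in CD45.1, for neurons 27.5 to 39.4 against 170.6 to 202.4 tags in untreated mice. The 3 oligodendrocyte markers held the most tags outside microglia, 886 to 913 in CD45.1 and 938 to 962 in CD45.2 at rest. The 1 of 4 neutrophil markers with a peak at rest held 12.2 to 26.9 and 23.1 to 55.1 tags. After LPS 3 of the 4 had peaks and summed to 20.5 to 51.4 tags in CD45.1 and 30.8 to 57.1 in CD45.2. The part of other cells in the results on the family was not tested. A difference in the share of cells with an open site and a difference in how open it was in each cell cannot be told apart in such sorted samples.

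The sequences of 8 peaks are shown because the comparisons turn on them. They are the promoter of Atf3, the one peak with an interaction past the limit, 2 distal peaks of Atf3, the peak upstream of Batf with the largest population difference, 2 distal peaks of Jun called higher after LPS, and the promoters of Jun and Fos. All were read from the genome of build mm9, on the strand of the gene for the promoters and on the plus strand otherwise, and the Atf3 and Jun promoters are given up to the annotated start of the gene. Capitals mark an AP-1 site (TGANTCA), a site with one more spacer base (TGANNTCA) or, in the Fos promoter, a serum response element, the site of serum response factor.
Atf3 promoter (chr1:193007220-193007399, minus strand): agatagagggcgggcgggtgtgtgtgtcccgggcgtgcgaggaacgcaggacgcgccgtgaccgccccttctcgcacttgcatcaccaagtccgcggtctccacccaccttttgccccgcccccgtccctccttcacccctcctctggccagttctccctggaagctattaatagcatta
Atf3, 47.4 kb upstream (chr1:193054508-193054689, plus strand): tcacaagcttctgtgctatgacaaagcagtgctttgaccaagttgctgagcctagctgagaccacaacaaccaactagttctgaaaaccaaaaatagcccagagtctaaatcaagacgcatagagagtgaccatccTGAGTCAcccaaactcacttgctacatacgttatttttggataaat
Atf3, 65.3 kb upstream (chr1:193072440-193072577, plus strand): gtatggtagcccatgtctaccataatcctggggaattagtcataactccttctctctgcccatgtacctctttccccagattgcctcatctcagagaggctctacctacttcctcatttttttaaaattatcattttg
Batf, 16.4 kb upstream (chr12:87011166-87011302, plus strand): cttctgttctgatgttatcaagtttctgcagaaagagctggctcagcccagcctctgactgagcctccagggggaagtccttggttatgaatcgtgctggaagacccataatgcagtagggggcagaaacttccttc
Jun, 157 kb upstream (chr4:94876107-94876300, plus strand): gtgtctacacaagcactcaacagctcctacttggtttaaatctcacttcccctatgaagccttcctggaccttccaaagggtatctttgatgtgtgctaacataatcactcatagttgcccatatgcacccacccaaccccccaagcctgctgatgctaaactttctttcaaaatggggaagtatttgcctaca
Jun, 163 kb upstream (chr4:94881917-94882146, plus strand): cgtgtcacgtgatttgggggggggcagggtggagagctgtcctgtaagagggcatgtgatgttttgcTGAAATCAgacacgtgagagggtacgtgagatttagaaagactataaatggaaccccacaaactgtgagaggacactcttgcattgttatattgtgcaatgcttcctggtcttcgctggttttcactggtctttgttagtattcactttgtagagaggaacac
Jun promoter (chr4:94718914-94719141, minus strand): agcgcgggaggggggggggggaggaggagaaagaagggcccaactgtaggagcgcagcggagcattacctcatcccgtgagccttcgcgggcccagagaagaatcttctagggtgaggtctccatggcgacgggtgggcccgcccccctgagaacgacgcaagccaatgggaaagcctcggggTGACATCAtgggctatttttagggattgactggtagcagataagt
Fos promoter (chr12:86814452-86814568, plus strand): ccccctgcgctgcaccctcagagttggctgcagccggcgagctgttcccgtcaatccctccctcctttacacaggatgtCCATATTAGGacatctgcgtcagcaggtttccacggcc
Of the peaks printed here, the distal ones of Atf3, Batf and Jun lay between genes in the GENCODE annotation except the one 157 kb upstream of Jun. That peak overlapped an exon of the non-coding gene Gm12708. The untrimmed Atf3 promoter peak reached into the Atf3 UTR at one end, while the part printed lay upstream of the gene. The Jun promoter overlapped an intron of BC042782, which runs the other way. Reads of ATAC-seq carry no strand, so that the peak cannot be given to either gene.

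Within 200 bases around the peak centre the AP-1 site TGANTCA, searched on both strands, was present in 8 of 90 family peaks of untreated mice (8.89%) and in 8.12% of all peaks. After LPS it was present in 10 of 81 (12.3%) and in 13.4% of all. TGANNTCA, which includes TGACGTCA, was found in 8.89% of family peaks and 8.94% of all peaks in untreated mice, and in 14.8% and 9.65% after LPS. The serum response element was found in 5 family peaks of untreated mice (5.56%, against 1.05% of all peaks). These were a peak in the Fos promoter, the Fosb promoter, the Junb peak past the end of the gene, and the Fos peaks 4.25 kb and 12.2 kb downstream of the start. After LPS 3 family peaks held it (3.70%, against 0.97% of all). A match describes the letters in the window and was not tested for binding.

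**Figure D1:**
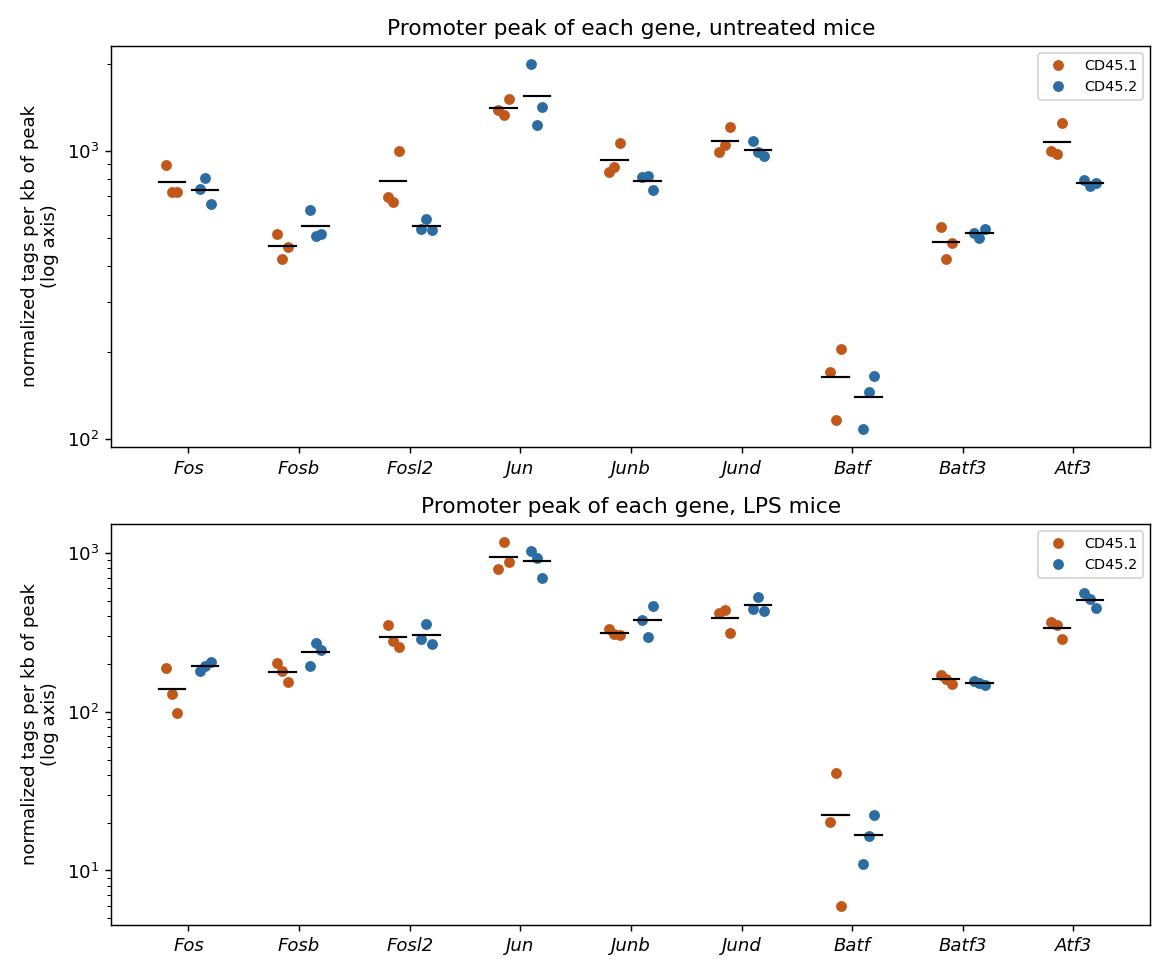
Normalized tags per kb at the promoter peak of each gene (log axis), in untreated mice (top) and after LPS (bottom). Points are libraries and bars are means of 3; Jun stands highest and Batf lowest in all 4 groups, and the panels were normalized separately.

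At rest, the peaks taken as promoters of the 9 genes with peaks held tags in both populations. Each gene is described by its promoter peak, the annotated promoter peak with the highest mean count. Where none was annotated so (Jund in both tables, Batf after LPS), the peak nearest to the start site stands in for it and is counted among the promoters. For Jund that peak lay 1.1 kb past the start, in the 5′ UTR. Per kb of peak, the Jun promoter was the most accessible, with 1409 ± 94.6 normalized tags per kb in CD45.1 and 1549 ± 403 in CD45.2 (SD, n = 3). Jund, which encodes the Jun protein present in most resting cells, came next with 1082 ± 114 and 1010 ± 63.7, and its libraries did not overlap with those of Jun. Batf, best known for its role with IRF proteins in lymphocytes and dendritic cells, was lowest with 164 ± 45.01 and 140 ± 29.0, below every library of every other gene. Its peak held 10.65 to 20.15 tags in a library, and 1 of 3 CD45.1 and 2 of 3 CD45.2 libraries had it in their own lists. Between Jund and Batf, the libraries of Junb, Atf3 and Fos overlapped with one another in CD45.2, as did those of Fosl2, Fosb and Batf3. In CD45.1, Jund (1082 ± 114) overlapped with Atf3 (1074 ± 150.5), so that its second place was not separate there. Junb overlapped there with Atf3, Fosl2 with Junb, Fos with Fosl2 (777 ± 100 and 786 ± 188) and Fosb with Batf3. After LPS, Jun again stood apart at the top, at 949 ± 201 and 887 ± 175 tags per kb, and Batf at the bottom with 22.4 ± 17.6 and 16.6 ± 5.70. The Batf peak used there, 145 bp past the start, was not the one used at rest. It held only 0.94 to 6.52 tags in a library, too few for the test, and 1 of 3 libraries of each population had it in their own lists. Levels cannot be compared between the tables, since the peaks were called and counted separately.

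Fosl1, which encodes the Fos-related protein FRA-1, had no merged peak in either table. The nearest merged peak lay 9874 bp (untreated) and 9885 bp (LPS) from its start at chr19:5447703, at the promoter of Ccdc85b. In the lists of single libraries, 3 of 6 from untreated mice and 0 of 6 from LPS mice held a peak within 1000 bp of the start, with HOMER scores of 6 to 7.5.

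The first comparison asked whether grafted cells and host microglia differed at these genes. In untreated mice 6 of the 90 family peaks were more accessible in CD45.1 (DESeq2, Benjamini-Hochberg adjusted p under 0.05), against 8.54% of all 59170 peaks tested, and 0 were more accessible in CD45.2, against 6.32%. All 90 passed the filter on low counts. At an unadjusted p under 0.05 the counts were 8 and 0, and edgeR also called 8 and 0. With the mouse as a block, 2 peaks remained past the limit. Complete separation of the CD45.1 from the CD45.2 libraries was seen at 12 family peaks with CD45.1 higher (17.8% of all peaks) and at 4 with CD45.2 higher (17.7% of all). The median log2 difference over the family was 0.05, and over all peaks 0.00. Differences were under 2-fold at 87 of the 90 family peaks (96.7%), compared with 80.3% of all peaks.

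**Figure D2:**
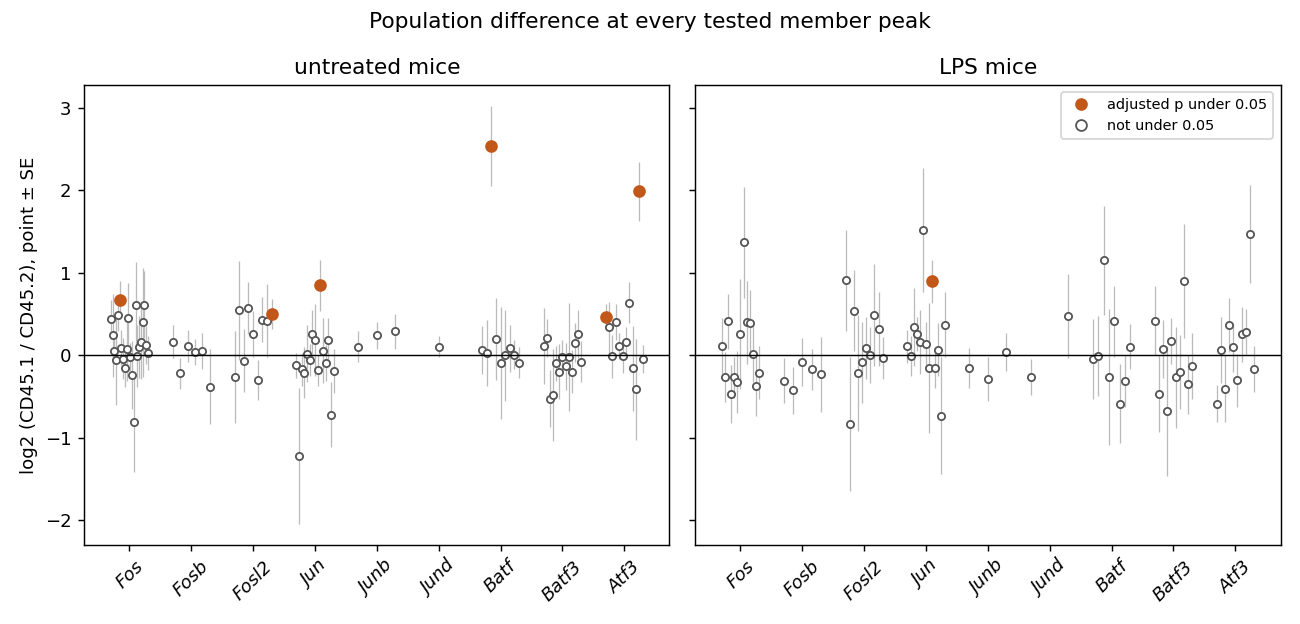
Log2 of CD45.1 over CD45.2 (point ± SE) at every tested peak of the family, grouped by gene and ordered by position, in untreated mice (left, 90 peaks) and after LPS (right, 74 peaks). Filled points passed an adjusted p of 0.05; there are 6 on the left and 1 on the right, all above 0.

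The largest difference was upstream of Batf. The peak at chr12:87011166-87011302 lies 16.4 kb upstream of the start and held 37.3, 38.3 and 31.0 normalized tags in the CD45.1 libraries of mice 4, 5 and 6. The CD45.2 libraries of the same mice held 6.55, 3.87 and 7.71 tags. Every grafted library was above every host library, and the peak was called by HOMER in 3 of 3 single CD45.1 libraries and in 0 of 3 CD45.2 libraries. These list calls rest on the same tags as the test and are not separate support. With no CD45.2 list holding it, the peak entered the merged set through the CD45.1 libraries, where it was high. The difference was 2.54 ± 0.49 on the log2 scale (SE, 5.82-fold, adjusted p = 7.18e-06, DESeq2), the only one of the family past a stricter limit, over 4-fold with an adjusted p below 0.01, which 6.43% of all peaks passed. After LPS the same site held 13.7, 11.1 and 21.7 tags in CD45.1 (mice 1, 2 and 3) and 3.50, 2.18 and 13.7 in CD45.2, with host mouse 3 inside the range of the graft (log2 difference 1.16 ± 0.66, adjusted p = 0.419). The Batf promoter peak itself (58 bp upstream) held 16.1 ± 4.41 and 13.7 ± 2.84 tags in untreated CD45.1 and CD45.2 libraries (log2 difference 0.20 ± 0.49, adjusted p = 0.894).

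Atf3 encodes a stress-induced repressor that limits inflammatory gene expression in macrophages. A peak 65.3 kb upstream of it (chr1:193072440-193072577) held 56.0, 52.0 and 56.6 tags in the CD45.1 libraries and 9.83, 12.8 and 17.4 in the CD45.2 libraries of untreated mice. The populations were far apart, and again 3 of 3 CD45.1 and 0 of 3 CD45.2 libraries had the peak in their own lists. This peak too thus entered the merged set through the CD45.1 libraries, and its list calls are not separate support. The log2 difference was 1.99 ± 0.36 (3.97-fold, adjusted p = 1.30e-06), just under 4-fold and therefore outside the stricter limit. After LPS the site held 18.2, 11.1 and 19.3 tags in CD45.1 against 5.25, 4.36 and 6.83 in CD45.2, and here too the libraries did not overlap (1.47 ± 0.60, adjusted p = 0.140). Both distal differences, at Batf and at Atf3, stayed past an adjusted p of 0.05 in all 11 alternative settings in untreated mice, and with the mouse as a block they were 2.55 (adjusted p = 0.000467) and 2.03 (adjusted p = 0.000143).

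The other 4 peaks past the limit in untreated mice differed less. The Atf3 promoter (chr1:193007207-193007399, overlapping the 5′ UTR) held 192.6, 188.4 and 240.7 tags in CD45.1 against 153.2, 146.3 and 149.4 in CD45.2 (0.47 ± 0.16, adjusted p = 0.0264). At the Fosl2 promoter (chr5:32437977-32438226), the gene of FRA-2, the tags were 172.6, 166.1 and 250.5 against 134.4, 145.5 and 132.7 (0.50 ± 0.18, adjusted p = 0.0350). In both promoters all grafted libraries lay above all host libraries, and the library of mouse 6 was highest among them. A peak 1.63 kb upstream of Fos (chr12:86813143-86813306) held 76.0, 96.3 and 111.1 tags in CD45.1 against 49.2, 61.1 and 64.9 in CD45.2 (0.67 ± 0.23, adjusted p = 0.0292). Only the CD45.1 libraries, 3 of 3, had it in their own lists, so that it also entered the merged set through them. The peak 157 kb upstream of Jun (chr4:94876107-94876300) held 56.9, 42.9 and 50.1 tags against 34.4, 26.3 and 23.9 (0.85 ± 0.31, adjusted p = 0.0425). These 4 calls were lost with the mouse as a block (adjusted p = 0.135, 0.146, 0.0978 and 0.189 in the order given) and with each library scaled to its total tags (0.659, 0.663, 0.520 and 0.206). They were also lost when single libraries were left out. For the Atf3 promoter these were CD45.1 of mice 4 and 6 and CD45.2 of mice 5 and 6 (adjusted p = 0.0681 to 0.257), for the Fosl2 promoter all but CD45.1 of mouse 5 (0.0513 to 0.427), for Fos all but CD45.1 of mouse 4 (0.0848 to 0.207) and for Jun all but CD45.2 of mouse 4 (0.0720 to 0.282).

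The proximal Fos region was covered by 3 adjacent promoter peaks in untreated mice, 341, 172 and 20 bp upstream. In CD45.1 the peak at 341 bp held 104.5, 83.9 and 84.4 tags and in CD45.2 86.0, 94.0 and 76.7 tags. These overlapped, and the difference was 0.10 with a 95% interval from -0.32 to 0.51 on the log2 scale (adjusted p = 0.878). At the Jun promoter the CD45.1 libraries held 332.6, 318.9 and 363.2 tags and the CD45.2 libraries 480.1, 294.5 and 340.5, with host mouse 4 highest (-0.12, interval -0.42 to 0.18, adjusted p = 0.757). The remaining promoters, those of Fosb, Junb, Jund, Batf and Batf3, differed by -0.22 to 0.24 with adjusted p from 0.417 to 0.894. Of the 9 promoters, 2 were thus called in untreated mice, both higher in CD45.1. Of all peaks tested, 8.54% were called higher in CD45.1 and 6.32% lower. Both promoter calls were lost with the mouse as a block and with total-tag scaling.

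After LPS 74 of the 81 family peaks had enough tags for the test. Of these 1 was more accessible in CD45.1, against 4.08% of all 49180 peaks, and 0 in CD45.2, against 2.38%. With no adjustment 4 and 1 peaks had a p under 0.05, edgeR called 2 and 1, and with the mouse as a block DESeq2 called 0 and 0. No family peak passed the stricter limit, which 2.97% of all peaks did. The libraries did not overlap at 5 peaks with CD45.1 higher and at 4 with CD45.2 higher, against 14.1% and 13% of all peaks. Family peaks under 2-fold made up 94.6%, compared with 81.9% of all.

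The called peak was again the one 157 kb upstream of Jun (chr4:94876099-94876322 in this table). It held 80.0, 106.3 and 90.6 tags in CD45.1 against 67.4, 40.5 and 46.6 in CD45.2. No libraries overlapped, and the log2 difference of 0.90 ± 0.26 (1.86-fold, adjusted p = 0.0126) was close to the 0.85 found in untreated mice. The call was lost with the mouse as a block (0.89, adjusted p = 0.138) and without CD45.1 of mouse 2 (adjusted p = 0.179) or 3 (0.0784) or CD45.2 of mouse 2 (0.261) or 3 (0.138). The 8 promoters tested after LPS differed by -0.59 to 0.11, and 0 passed. The Jun promoter held 191.6, 284.4 and 212.7 tags in CD45.1 against 250.5, 225.4 and 167.8 in CD45.2, which overlapped (0.11, interval -0.28 to 0.50). Fos held 37.6, 25.4 and 19.3 tags in CD45.1 against 35.9, 38.4 and 40.7 in CD45.2, where graft mouse 1 alone reached the host libraries (-0.47, interval -1.16 to 0.22, adjusted p = 0.605).

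**Figure D3:**
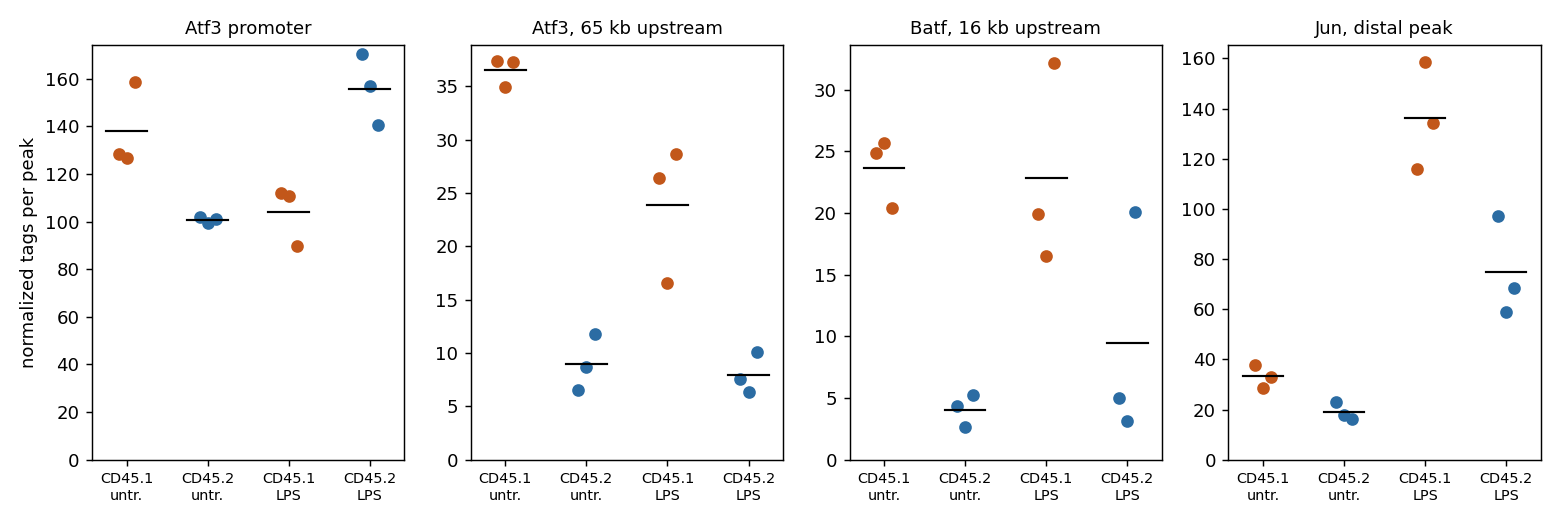
Normalized tags per peak at the Atf3 promoter, the peaks 65.3 kb upstream of Atf3 and 16.4 kb upstream of Batf, and the peak 157 kb upstream of Jun, scaled over all 12 libraries. Points are libraries and bars are means of 3; at the Atf3 promoter CD45.1 lies above CD45.2 in untreated mice and below it after LPS.

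The tags of all peaks of a gene were also summed. None of the 9 genes with peaks passed in either table, while of 16174 genes at rest 7.35% were called higher in the graft and 7.46% higher in the host, and of 15722 genes after LPS 4.08% and 2.98%. Without adjustment 2 genes had a p under 0.05 in untreated mice and 0 after LPS, and edgeR called 0 in both. Atf3 was closest, with 1114 ± 65.5 tags in CD45.1 against 952 ± 41.1 in CD45.2 at rest (0.23 ± 0.09, adjusted p = 0.0692), followed by Fosl2 with 484 ± 66.8 and 398 ± 39.7 (0.27 ± 0.13, adjusted p = 0.148). Fos summed to 1284 ± 59.3 and 1169 ± 36.1 tags and Jun to 1102 ± 53.8 and 1190 ± 162. The family's log2 differences lay between -0.10 and 0.27 at rest and between -0.21 and 0.18 after LPS.

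Genes around the family were listed with earlier results of these data known. Of 10 partners and related factors, all with peaks, 3 summed higher in CD45.1 of untreated mice and 0 lower (median 0.16, all genes 0.00), where 7.35% of all genes were called higher and 7.46% lower, and edgeR also called 3. These were Creb5, a CREB family factor, at 642 ± 47.1 against 373 ± 19.9 tags (0.78 ± 0.11, adjusted p = 3.88e-11), Batf2, a paralogue of Batf, at 75.2 ± 18.4 against 34.1 ± 2.05 (1.15 ± 0.28, adjusted p = 0.000512), and Jdp2, a repressor that pairs with Jun proteins, at 483 ± 21.96 against 381 ± 17.7 (0.33 ± 0.11, adjusted p = 0.0189). After LPS 0 of the 10 passed, with 0 at an unadjusted p under 0.05 and 0 by edgeR. Of 17 kinases and ternary complex factors upstream of the family, Mapk14, the gene of p38 alpha, was higher in CD45.1 (0.45 ± 0.13, adjusted p = 0.00677) and Elk3, a serum response factor partner, was lower (-0.50 ± 0.15, adjusted p = 0.00605) in untreated mice, and 0 of 17 passed after LPS by DESeq2 or edgeR, with 0 at an unadjusted p under 0.05. Of 9 measured genes among 10 listed as AP-1 targets, 3 were higher in CD45.1 of untreated mice and 0 lower (median 0.48). Over all genes 7.35% were called higher and 7.46% lower (median 0.00). Among the targets 7 had an unadjusted p under 0.05, and edgeR called 5. The 2 further genes of edgeR were Spp1 (0.53, adjusted p = 0.0197) and the cytokine gene Il6, which was lower in CD45.1 (-0.31, adjusted p = 0.0487). Those called by DESeq2 were the protease genes Mmp13 (1.49 ± 0.37, adjusted p = 0.000710) and Plau (0.60 ± 0.13, adjusted p = 5.57e-05) and the chemokine gene Ccl2 (0.43 ± 0.15, adjusted p = 0.0354). After LPS only Spp1, which encodes osteopontin, passed in DESeq2, with 133.1, 153.6 and 99.4 tags in CD45.1 against 49.3, 33.2 and 29.8 in CD45.2 (1.84 ± 0.27, adjusted p = 6.19e-10). Over all genes after LPS, DESeq2 called 4.08% higher in CD45.1 and 2.98% lower. Of the targets, 4 had an unadjusted p under 0.05 there and edgeR called 3, with Mmp13 (adjusted p = 0.0158) and Plau (0.0297) beside Spp1. These counts are few, and a summed level over a gene's peaks says nothing of AP-1 binding there.

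The second comparison asked how the family responded to LPS within each population. Of the family peaks, 59 could be paired between the tables by a reciprocal overlap of at least 50%, and all 59 passed the filter. Treatment cannot be told apart here from the table, because peaks of each treatment were called and merged on their own and came out wider after LPS, by a median factor of 1.16 for the family and 1.22 for all pairs. Values below are per peak, normalized over all 12 libraries, and the value per base of peak width is given where a call changed. For the latter, tags were divided by peak width and the libraries rescaled over all peaks, so that a peak which widened by less than the median pair has a higher value per base than per peak. At a peak whose width hardly changed, such as the Jun promoter (240 bp before and 242 bp after LPS), that gain reflects the rescaling over all peaks and not its own width. At a peak that became narrower, its own width and the rescaling both raise the value per base. In CD45.1 9 family peaks were higher after LPS, against 12.4% of 39235 pairs, and 8 were lower, against 7.29%. In CD45.2 7 were higher, against 11.6% of all, and 3 were lower, against 4.98%. Of the peaks called higher, 5 were shared by both populations, and of those called lower, all 3 of CD45.2 were among those of CD45.1. Per base of width, 5 of the 9 and 3 of the 8 calls held in CD45.1, and 5 of the 7 and 0 of the 3 in CD45.2. With each library scaled to its total tags, 8 of these 27 calls held and 19 were lost.

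**Figure D4:**
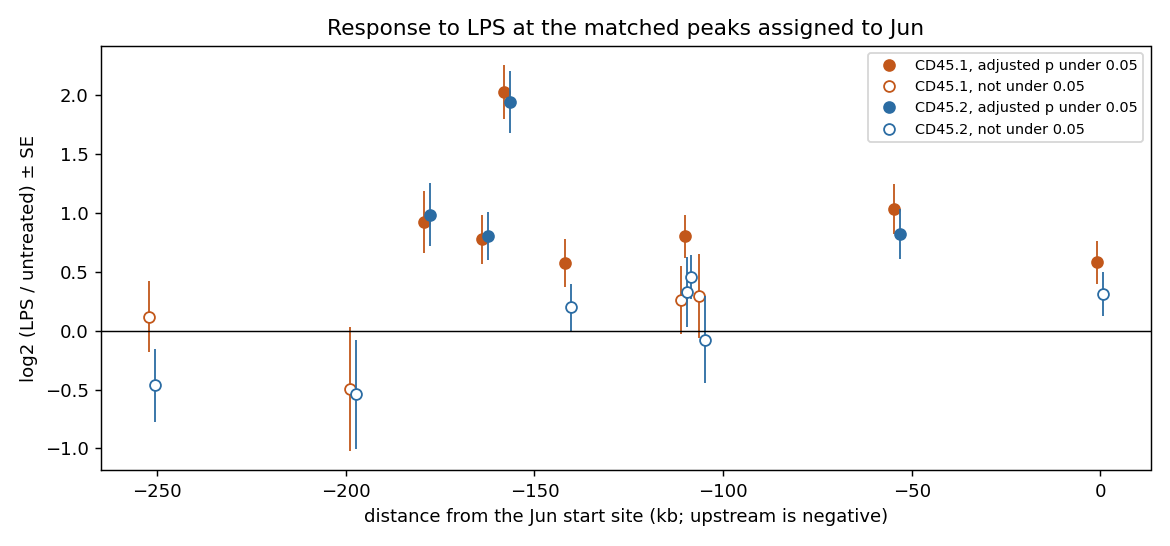
Log2 of LPS over untreated (± SE) at the 11 matched peaks of Jun against their distance from the start site in kb, for CD45.1 and CD45.2. Filled points passed an adjusted p of 0.05; the peak 157 kb upstream stands highest in both populations, near 2 on the log2 scale.

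Jun, the gene of the central subunit of AP-1, held 7 of the 9 peaks called higher in CD45.1 and 4 of the 7 in CD45.2, out of 11 matched peaks. All of these but the promoter lay 53.9 to 178 kb upstream and were assigned to Jun by the nearest start site alone. The peak at 53.9 kb lay in an intron and that at 109 kb in an exon of BC042782. Whether the distal peaks act on Jun was not tested. The peak 157 kb upstream rose most. In CD45.1 it held 38.0, 28.8 and 33.0 tags in untreated mice and 116.0, 158.4 and 134.3 after LPS, and in CD45.2 22.8, 17.9 and 16.2 and then 97.1, 58.7 and 68.7. Each LPS library was above each untreated library of its population. The rise was 2.03 ± 0.23 in CD45.1 (4.07-fold, adjusted p = 6.27e-16) and 1.94 ± 0.27 in CD45.2 (3.85-fold, adjusted p = 3.40e-11), and it was 2.09 and 2.01 per base of width (194 and 224 bp). It did not differ detectably between the populations (interaction 0.08 ± 0.35, adjusted p = 0.997). In all 16 alternative settings the call held in both populations.

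Farther upstream, the peak at 163 kb held 52.6, 59.7 and 58.8 tags in CD45.1 of untreated mice and 90.2, 93.3 and 108.4 after LPS. In CD45.2 it held 76.7, 49.3 and 62.4 and then 103.4, 110.5 and 106.7. Treated libraries were all higher, by 0.78 ± 0.21 and 0.81 ± 0.20 (adjusted p = 0.00230 and 0.00112), although the LPS peak was the narrower one (198 against 230 bp). The peak at 178 kb rose by 0.92 ± 0.26 and 0.99 ± 0.27 (adjusted p = 0.00442 and 0.00271), and both calls held per base of width. Scaled to total tags, the calls at 163 kb (adjusted p = 0.0954 and 0.123) and at 178 kb (0.0770 and 0.103) were lost. The peak at 53.9 kb rose by 1.03 ± 0.21 and 0.82 ± 0.21 (adjusted p = 4.29e-05 and 0.00168), but it was 197 bp wide after LPS against 117 bp before, and per base of width neither value passed (0.55 and 0.34, adjusted p = 0.0529 and 0.308). The Jun promoter held 221.8, 214.0 and 239.1 tags in untreated and 277.8, 423.7 and 315.5 in LPS libraries of CD45.1, with no overlap (0.58 ± 0.18, adjusted p = 0.0123). Without CD45.1 LPS of mouse 2 that rise was 0.40 (adjusted p = 0.157), and it also missed the limit without the untreated CD45.1 library of mouse 4 (0.0543) or 5 (0.0615). In CD45.2 the promoter held 318.8, 200.5 and 230.5 and then 360.7, 326.6 and 247.2 tags, in overlap (0.31 ± 0.18, adjusted p = 0.258), and per base of width both populations passed (0.84 and 0.57, adjusted p = 0.000146 and 0.0184). The peaks at 109 kb and 141 kb were called in CD45.1 alone (0.80 and 0.57) and neither was called per base (0.38 and 0.33, adjusted p = 0.141 and 0.251). The call at 141 kb was also lost without CD45.1 of mouse 4 or 6 (untreated) or of mouse 2 or 3 (LPS), with adjusted p from 0.0840 to 0.135. The remaining Jun peaks passed in neither population.

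At Junb, the gene of a Jun protein that often restrains the activity of JUN, the promoter held 103.0, 107.2 and 128.0 tags in untreated and 82.0, 77.8 and 76.2 in LPS libraries of CD45.1, in which the treated libraries were lower without passing (-0.52 ± 0.20, adjusted p = 0.0523). In CD45.2 the tags were 98.5, 101.2 and 90.1 and then 92.1, 73.3 and 116.8 (-0.01 ± 0.20). A peak 1.26 kb upstream rose in both populations, by 0.87 ± 0.20 and 1.08 ± 0.20 (adjusted p = 0.000252 and 3.74e-06). It was 117 bp wide before and 217 bp after LPS, and per base of width the values were 0.25 and 0.46 (adjusted p = 0.403 and 0.110). Jund fell in CD45.1 by 0.63 ± 0.16 on the log2 scale (adjusted p = 0.00115), with the peak 313 bp wide before and 253 bp after, and per base its value was -0.05 (adjusted p = 0.852).

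No peak of Fos, Fosb or Fosl2 was called higher per peak. At the Fos promoter only the central one of the 3 untreated peaks was matched, and it held 37.6, 35.5 and 35.8 tags in CD45.1 of untreated mice and 54.5, 37.9 and 28.7 after LPS. In CD45.2 it held 38.1, 38.7 and 36.5 and then 51.7, 55.6 and 59.9. The host libraries did not overlap between treatments while the graft libraries did, but neither passed per peak (0.57 ± 0.26, adjusted p = 0.116 in CD45.2 and 0.17 ± 0.27, adjusted p = 0.703 in CD45.1). Per base of width CD45.2 passed (0.80, adjusted p = 0.0155). Because the untreated signal was divided over 3 peaks and the LPS signal lay in 1, these values do not cover the whole promoter. A Fos peak 18.6 kb upstream fell by 0.64 in CD45.1 (adjusted p = 0.0225), which did not hold per base of width (-0.37, adjusted p = 0.236) or without CD45.1 untreated of mouse 6 (0.115) or CD45.1 LPS of mouse 2 (0.112) or 3 (0.264). At Fosb, which encodes another early Fos protein, a peak 15.96 kb upstream held 51.6, 57.3 and 54.8 tags in CD45.1 of untreated mice and 18.8, 18.5 and 31.5 after LPS. In CD45.2 it held 50.0, 62.2 and 46.98 and then 25.2, 29.7 and 24.1. All treated libraries were lower, and the values were -1.24 ± 0.30 and -1.001 ± 0.29 (adjusted p = 0.000620 and 0.00544), and -0.91 and -0.67 per base (adjusted p = 0.0187 and 0.101). The CD45.2 value missed the limit without the untreated library of mouse 5 (0.0764) or the LPS library of mouse 3 (0.0667). The Fosb promoter (-0.23 and -0.05) and the Fosl2 promoter (-0.42 and 0.07) passed in neither population.

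Batf3 and Atf3 are neighbours on chromosome 1, with 61.4 kb between the genes, and 8 of the 13 Batf3 peaks in untreated mice lay past the end of Batf3, on the side of Atf3. Batf3 encodes a factor required for one class of dendritic cells. Among these intergenic peaks the one 12.99 kb past the Batf3 start rose in CD45.1 (0.64 ± 0.22, adjusted p = 0.0211) and had 0.42 ± 0.22 in CD45.2 (adjusted p = 0.189), and per base of width both passed (0.98 and 0.76, adjusted p = 0.000141 and 0.00578). Its call in CD45.1 was lost when the library of mouse 4 (0.0686), 5 (0.0774), 1 (0.189) or 2 (0.0682) was left out. In CD45.1 the peaks at 11.7, 16.7 and 24.5 kb fell, with log2 values of -1.67, -1.18 and -0.93 (adjusted p = 0.0121, 0.0218 and 0.0167). The one at 16.7 kb fell in CD45.2 as well (-1.09, adjusted p = 0.0277). Without LPS mouse 3 none of these 4 values passed (adjusted p = 0.0757, 0.222 and 0.184 in CD45.1 and 0.165 in CD45.2). In CD45.1 the value at 11.7 kb also missed the limit without mouse 4 (0.0636) or 1 (0.0650), that at 16.7 kb without mouse 4 (0.104) and that at 24.5 kb without mouse 5 (0.103) or 2 (0.0808). In CD45.2 the value at 16.7 kb was also lost without mouse 4, 5, 6 or 2 (0.0658 to 0.116). Per base of width the one at 24.5 kb alone passed (-0.85, adjusted p = 0.0320). The Batf3 promoter did not pass (-0.41 and -0.62, adjusted p = 0.239 and 0.0637). Fos and Batf also lie on one chromosome, 12, with 209 kb between them, and Batf had 1 call per peak, a fall in CD45.1 at a peak 18.95 kb past its start (-0.66 ± 0.22, adjusted p = 0.0224), which missed the limit without CD45.1 of mouse 4 or 5 (untreated) or of mouse 2 or 3 (LPS), with adjusted p from 0.0596 to 0.195. Another Batf peak, 38.6 kb upstream and 227 bp wide after LPS against 125 bp before, passed per base of width alone, in both populations (-1.13 and -1.02, adjusted p = 0.0118 and 0.0271; per peak -0.54 and -0.43, adjusted p = 0.292 and 0.445).

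At Atf3 the peak 47.4 kb upstream, which holds the AP-1 site shown above, rose in CD45.2. It held 52.2, 30.6 and 34.3 tags in untreated and 63.0, 65.1 and 77.9 in LPS libraries of CD45.2 (0.89 ± 0.25, adjusted p = 0.00440), and 57.9, 70.1 and 46.6 and then 94.4, 95.2 and 70.6 in CD45.1 (0.56 ± 0.24, adjusted p = 0.0735). The treated libraries were above the untreated ones in both populations, and per base of width both passed (1.04 and 0.71, adjusted p = 0.000592 and 0.0187). The CD45.2 call was lost when the library of mouse 5 (0.0777), 6 (0.0511) or 3 (0.0656) was left out. The peak 41.6 kb upstream lay in an intron of D730003I15Rik. It fell in both populations, by 0.80 and 0.96 (adjusted p = 0.00491 and 0.000846), and in neither per base of width (adjusted p = 0.258 and 0.119). A peak 10.9 kb upstream, 198 bp wide after LPS against 132 bp before, passed per base of width alone, in CD45.1 (-0.91, adjusted p = 0.0218; per peak -0.60, adjusted p = 0.160). The peak 65.3 kb upstream, which differed between the populations, did not pass for LPS (-0.63 ± 0.35 and -0.14 ± 0.48, adjusted p = 0.205 and 0.883).

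**Figure D5:**
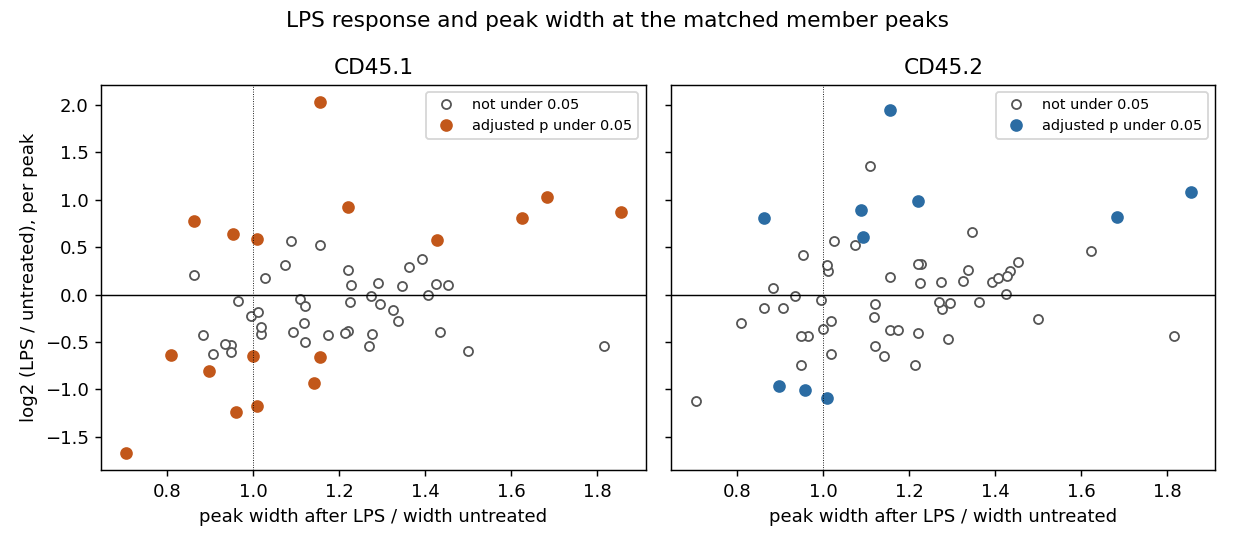
Log2 of LPS over untreated per peak against the ratio of peak widths (LPS over untreated) at the 59 matched family peaks, for CD45.1 (left) and CD45.2 (right). Filled points passed an adjusted p of 0.05; the called peaks span ratios from 0.704 to 1.86.

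The third comparison asked whether the populations responded differently. The interaction of population and treatment is not touched by a width that is the same for both populations. It had a defined adjusted p at 51 of the 59 family pairs, and 1 passed, with a lower response in CD45.1. Of all 27825 pairs with a defined value, 0.0252% passed with a higher and 0.320% with a lower response in CD45.1. edgeR also called 1, and with no adjustment the same 1 peak had a p under 0.05.

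That peak was the Atf3 promoter. In CD45.1 it held 128.5, 126.5 and 158.4 tags in untreated mice and 111.9, 110.8 and 89.5 after LPS. In CD45.2 it held 101.7, 99.6 and 101.1 in untreated mice and 170.2, 156.7 and 140.4 after LPS. The graft libraries were all above the host libraries in untreated mice and all below them after LPS. Within populations, accessibility rose in CD45.2 (0.61 ± 0.17, adjusted p = 0.00464; 0.46, adjusted p = 0.362 with total-tag scaling), and in CD45.1 the difference was -0.40 ± 0.18 (adjusted p = 0.0942). The interaction was -1.01 ± 0.25 (adjusted p = 0.0164). With the mouse as a block it was -1.03 (adjusted p = 0.268), and with each library scaled to its total tags it was -0.90 (adjusted p = 1.00). It also missed the limit without CD45.1 untreated of mouse 6 (0.193), CD45.2 untreated of mouse 5 (0.126) or 6 (0.0839), CD45.1 LPS of mouse 3 (0.167) and CD45.2 LPS of mouse 1 (0.0521) or 2 (0.116). The value itself stayed between -1.09 and -0.89 over all 16 alternatives.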

How the data were processed

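ATAC-seq was performed on CD45.1 and CD45.2 cells sorted from the same brains, in 12 libraries. The authors' processing notes name bcl2fastq 2.17.1.14, Bowtie2, Picard 1.108 and HOMER, with build mm9; a shift of read ends for the transposase is not given in the sources used here. The authors merged and annotated the peaks of the 6 libraries of each treatment and deposited unnormalized tags per merged peak, in steps of 0.5, used here as estimated counts (expected counts). They also deposited a peak list per library with a HOMER findPeaks score, which per the file headers used a fragment length of 300 bp and a false discovery rate of 0.001. The lists served to count libraries with a peak. Columns of ratios or other measures in these lists were not used.

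Counts were rounded and tested with DESeq2 1.42.0 in R 4.3.3 (Wald test, median-of-ratios scaling, as in the study) over every peak that exceeded 10 counts in some library, 59170 of 60288 and 49180 of 54953. Log2 differences are positive where CD45.1 was higher and are given with their SE. Matched peaks were fitted over all 12 libraries. The alternatives were edgeR 4.0.16 with TMM, scaling to total tags, a block for the mouse, other filters, other matching, and leaving out each library, and the width correction, with libraries rescaled on the corrected tags, was added after seeing the data. The calculations were tested on simulated data. An LPS library held a median of 8 to 23.5 tags per peak, so counting error limits single peaks. The p-values rest on the spread between libraries within groups of 3. DESeq2 pooled this spread over all groups of a fit and drew it toward a trend over all peaks or genes. Without the block the p-values treat both populations of a mouse as independent. No 2 libraries of a group had equal tags at more than 3.68% of peaks.

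The mouse number pairs the libraries because both populations came from one animal. Deviations of same-mouse libraries from their group means correlated by 0.08 to 0.09 over peaks in untreated mice and by -0.07 to 0.15 after LPS. The members and lists were chosen with earlier results of these data known. Peaks named were the promoter of each gene, those over 4-fold with an adjusted p under 0.01, and those with an interaction, and further called peaks were named after their values were seen. Some markers of the cell type check are not reported here.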

Additional observations from a re-analysis of the deposited data

Results flagged for a closer look

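At the Atf3 promoter the interaction of population and treatment, a test of the difference between the responses of grafted cells and host microglia to LPS, was -1.01 on the log2 scale (DESeq2, adjusted p = 0.0164). Both populations came from the same mice, and with the mouse as a block the adjusted p was 0.268. It was 1.00 with total-tag scaling and also missed the limit when 1 library was left out in 6 of the 12 cases. The Atf3 promoter was the only one of the 59 matched peaks of the family to pass without these changes. Its CD45.1 mean went from 137.8 ± 17.9 to 104.1 ± 12.6 tags and its CD45.2 mean from 100.8 ± 1.10 to 155.8 ± 14.9 (SD, n = 3). Groups of 3 libraries are too small to look for single outlying libraries.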

How the results depend on the processing

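Of 514 alternative values for the 35 named peak results, 401 kept their side of the threshold, 113 lost the call and 0 reversed. In untreated mice the count of 6 peaks higher in CD45.1 became 2 with total-tag scaling, 2 with the replicate block for the mouse and 3 with a mean count of at least 20 (2 to 5 without single libraries), and the 1 peak past 4-fold became 2 with the block (1 to 2 without single libraries). After LPS the 1 peak higher in CD45.1 became 2 with edgeR and 0 with the block (0 to 1 without single libraries), and the 0 peaks higher in CD45.2 became 1 with edgeR. Among matched peaks in CD45.1, the 9 higher became 3 with total-tag scaling and 5 with 80% overlap (6 to 9 without single libraries), and the 8 lower became 2 and 4 with these settings and 5 per base of width (3 to 9). In CD45.2 the 7 higher became 11 with edgeR and 1 with total-tag scaling (6 to 9), and the 3 lower became 7 with edgeR and 1 per base of width (1 to 3). The single interaction became 0 with total-tag scaling and with the block (0 to 1). The cause of these changes was not tested. Scaling to total tags moved the median of all peaks to 0.14 for CD45.1 over CD45.2 after LPS and to -0.15 for LPS over untreated in CD45.2. The family gene sums stayed at 0 calls in 10 alternatives for each table. The block was run for the comparisons of the populations and for the interaction, and changed no other count among these by over 1.5 times. For LPS against untreated no block was fitted, since each mouse had 1 treatment. The median peak held 8 to 23.5 tags in an LPS library against 16 to 35 in an untreated one, and the part of depth in the counts of calls was not tested.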
